A study of Mus musculus with 3 samples.

Results

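The natriuretic peptide system of the mouse heart was examined through 7 genes, chosen by their role: the peptide genes Nppa, Nppb and Nppc, the receptor genes Npr1, Npr2 and Npr3, and Corin. All 7 were among the 19505 genes measured, each by 1 probe that names exactly 1 gene. Gene expression was measured on 3 microarrays of heart RNA, 1 array per group. The AAC + DAPA group was subjected to abdominal aortic constriction (AAC), in which a tie around the abdominal aorta makes the heart pump against a higher pressure. It was then given dapagliflozin, a drug that blocks the glucose transporter SGLT2 of the kidney, with the drinking water (25 mg/kg daily over 12 weeks). The AAC group had the same constriction and received saline, and in the sham group, which also received saline, the silk was taken out without being tied. All mice are labelled as wild-type C57BL/6 males aged 10 weeks at surgery, while the methods of the paper give a younger age at purchase. The sources used here do not say how many mice gave the RNA of an array. With 1 array per group no difference has a replicate check, no test was run, and every value below describes these 3 arrays.

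Natriuretic peptides are hormones that lower blood pressure and promote the excretion of salt and water. Nppa encodes atrial natriuretic peptide (ANP) and Nppb brain natriuretic peptide (BNP), both made by heart muscle cells and released when the wall is stretched, and both used as markers of cardiac hypertrophy. Nppa is made mainly in the atria of the healthy adult heart and is switched on again in the ventricle under load. Nppc encodes C-type natriuretic peptide, which acts locally in vessels and bone. Corin is a membrane protease of the heart muscle cell that cuts pro-ANP into the active hormone. Npr1 and Npr2 encode receptors that make the second messenger cGMP, the first for ANP and BNP and the second for C-type natriuretic peptide, while Npr3 encodes the clearance receptor that removes the peptides.

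Values are the deposited log2 expression values, and a difference of 1.5-fold (0.585 on the log2 scale) was used to count a gene as higher or lower. The median over all probes was 5.23 in AAC + DAPA, 5.30 in AAC and 5.24 in sham. The arrays did not match their labels in one respect. Of 4 Y-linked marker genes looked up, 3 were measured, and these stood between 2.72 and 2.96 in AAC + DAPA, between 6.39 and 11.71 in AAC and between 2.50 and 3.09 in sham, although all mice are labelled male. Both comparisons that include the AAC array therefore also hold this difference, whose part in the results was not tested, whereas AAC + DAPA and sham did not differ by 1.5-fold in any of these 3 genes.

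Nppa was the member that differed most. It stood at 19.37 in AAC + DAPA, 17.83 in AAC and 14.30 in sham. The value was thus highest after constriction with dapagliflozin, lower after constriction alone and lowest in sham. In AAC it was 11.6-fold above sham, a difference of 3.53 (log2) that ranked 10 among the rises of all genes. In AAC + DAPA it was a further 2.91-fold above AAC (1.54, log2), which ranked 34, and 33.6-fold above sham (5.07, log2). This was rank 1 of the rises among the 19505 genes in the comparison of AAC + DAPA with sham, the comparison in which those 3 Y-linked genes lay within 1.5-fold. Counted from the top of each array, Nppa was gene number 10 in AAC + DAPA, 42 in AAC and 537 in sham.

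Nppb differed less and in another order. It stood at 13.51 in AAC + DAPA, 13.79 in AAC and 12.97 in sham, highest in AAC. AAC exceeded sham by 1.77-fold (0.82, log2). In AAC + DAPA it lay 0.28 (log2) under AAC, within 1.5-fold, and 1.45-fold above sham (0.54, log2), just short of the threshold. Nppb is thus the member closest to the threshold on either side, and its count depends on where the line is drawn. Among the 297 genes whose mean level lay within 0.5 (log2) of Nppb, the absolute difference between AAC and sham had a median of 0.21 and a 95th percentile of 0.86, so Nppb lay just under the 95th percentile of genes of like level. Between AAC + DAPA and AAC these values were 0.15 and 0.59.

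**Figure D1:**
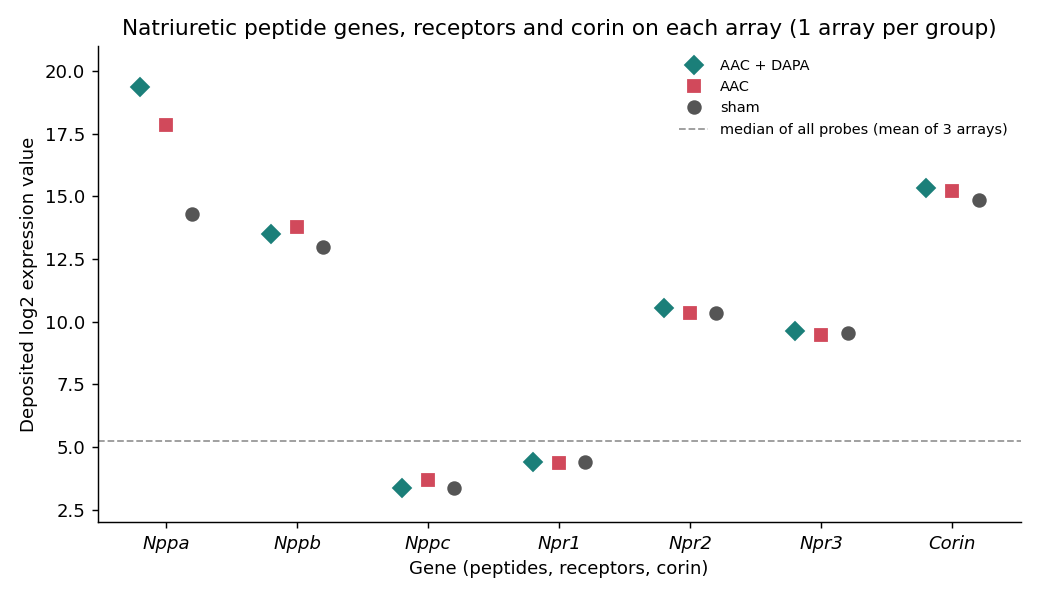
Deposited log2 expression values (vertical axis) of the 7 genes (horizontal axis) on the AAC + DAPA, AAC and sham arrays, 1 point per array with no error bar, and the median of all probes as a dashed line. Nppa stands at 19.37 in AAC + DAPA, 17.83 in AAC and 14.30 in sham, Nppb is highest in AAC at 13.79, and the points of Npr1, Npr2 and Npr3 nearly coincide.

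Corin, the protease that activates ANP, stood at 15.35 in AAC + DAPA, 15.22 in AAC and 14.85 in sham. Its order over the arrays was that of Nppa, but the spread was small. It was 1.41-fold higher in AAC + DAPA than in sham (0.50, log2) and 1.29-fold higher in AAC than in sham (0.37, log2), both under the threshold. The step between AAC + DAPA and AAC was 0.13 (log2). Of all genes, 9.16% differed by more than Corin between AAC + DAPA and sham, and 20.7% between AAC and sham.

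The receptor genes were nearly level over the 3 arrays. Npr1, the receptor of ANP and BNP, stood at 4.40 in AAC + DAPA, 4.37 in AAC and 4.40 in sham, below the median of all probes on each array. Npr2, the receptor of C-type natriuretic peptide, stood at 10.53 in AAC + DAPA and at 10.33 in both AAC and sham. The clearance receptor Npr3 stood at 9.61 in AAC + DAPA, 9.45 in AAC and 9.54 in sham. The largest spread among the 3 receptors was 0.20 (log2), for Npr2, which was 1.15-fold higher in AAC + DAPA than in either other array. None of them came near the threshold, while the level of Nppa spread over 5.07 (log2).

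Nppc was low. It stood at 3.36 in AAC + DAPA, 3.70 in AAC and 3.36 in sham, at percentile 13.3 of the genes of the AAC + DAPA array, 21.3 of the AAC array and 13.5 of the sham array. The AAC value was 0.34 (log2) above both others, or 1.27-fold. The values used here carry no detection call, so it was not settled whether Nppc, or Npr1 at percentiles 36.6 to 37.6, was above background. Since probes differ in how strongly they bind, these positions do not rank the receptors or the peptides against each other.

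Counted over the 7 genes, 2 (Nppa and Nppb) passed the threshold upward for AAC over sham, as did 4.88% of all genes, and 0 passed it downward, as did 4.98% of all genes. For AAC + DAPA over AAC, 1 (Nppa) passed it upward, beside 4.16% of all genes, and 0 downward, beside 4.18%. For AAC + DAPA over sham, 1 (Nppa) passed it upward, beside 3.22% of all genes, and 0 downward, beside 3.38%. At 2-fold only Nppa remained in each comparison, where the share of all genes that passed upward was 1.43% for AAC over sham, 0.831% for AAC + DAPA over AAC and 0.872% for AAC + DAPA over sham. The median difference of the 7 genes is the value of a single gene. For AAC over sham it was 0.34 (log2), that of Nppc, which was not settled to be above background. It was 0.13 for AAC + DAPA over AAC (Corin) and 0.20 for AAC + DAPA over sham (Npr2). The median over all genes was 0.00 in each comparison. These medians therefore do not show a shift of the 7 genes as a group. With 7 genes, a single gene sets most of these shares. Any 2 of the 3 comparisons have an array in common.

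**Figure D2:**
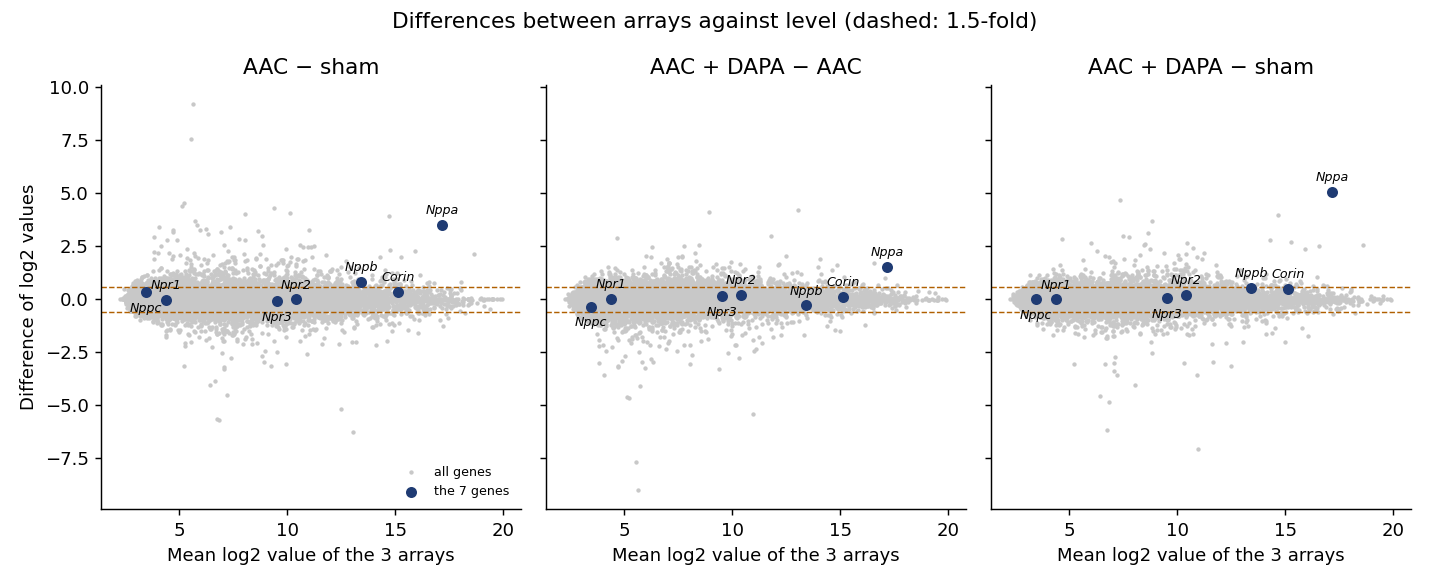
Difference of log2 values between arrays (vertical axis) against the mean log2 value of the 3 arrays (horizontal axis) for all 19505 genes in grey and the 7 genes in blue, 1 panel per comparison, with dashed lines at 1.5-fold. Nppa stands above the cloud of genes of like level in each panel, Nppb lies above the line only for AAC over sham, and the receptors lie near 0.

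The error of these differences could be gauged only in part. Each of the 7 genes has 1 probe, but 55 other genes have several, and the difference varied between probes of the same gene with an SD of 0.31 (log2) for AAC over sham, 0.26 for AAC + DAPA over AAC and 0.19 for AAC + DAPA over sham. The differences of Nppa (3.53, 1.54 and 5.07) were larger than this SD in every comparison. That of Nppb was larger for AAC over sham (0.82) and AAC + DAPA over sham (0.54), and about as large for AAC + DAPA over AAC (−0.28). Variation between animals is not part of these SDs. At the top of the scale, Nppa in AAC + DAPA lay 0.53 (log2) under Mb, the gene with the highest value of that array, against 2.10 under it in AAC and 5.63 in sham. Whether the scale flattens there was not tested. Among the 976 genes with a mean level above the 95th percentile, 71 passed the threshold upward for AAC over sham, 39 for AAC + DAPA over AAC and 39 for AAC + DAPA over sham, with Nppa among them each time. The deposited values have 2 decimals, and exact ties between arrays were common. For 14.9% of all genes all 3 arrays carried the same value, with 0 of the 7 genes among them. For 37.3% of all genes exactly 2 of the 3 arrays carried the same value, and 3 of the 7 genes, Nppc, Npr1 and Npr2, were among these. Where the ties come from, and whether equal values reflect equal expression, was not tested.

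Nppa and Nppb are neighbours on mouse chromosome 4, on the same strand, and both stood higher in AAC than in sham. The 250 bases before each start site are shown because they are the stretch next to the start of the peptide genes that differed between the arrays, and they were taken from RefSeq (build GRCm38.p6, plus strand, chr4:148000472-148000721 for Nppa and chr4:147985650-147985899 for Nppb). Capitals mark the letters of 5 motifs found on either strand: TATAAA (the core box bound by TBP), GATA (bound by GATA factors), AAGTG (NKX2-5), CATTCC (MCAT, bound by TEAD factors) and GGTGTGA (T-box).
Nppa: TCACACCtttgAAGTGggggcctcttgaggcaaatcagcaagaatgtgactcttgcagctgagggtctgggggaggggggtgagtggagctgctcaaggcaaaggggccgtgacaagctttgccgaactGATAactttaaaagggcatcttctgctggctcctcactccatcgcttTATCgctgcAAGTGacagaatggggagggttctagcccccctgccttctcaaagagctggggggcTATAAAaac
Nppb: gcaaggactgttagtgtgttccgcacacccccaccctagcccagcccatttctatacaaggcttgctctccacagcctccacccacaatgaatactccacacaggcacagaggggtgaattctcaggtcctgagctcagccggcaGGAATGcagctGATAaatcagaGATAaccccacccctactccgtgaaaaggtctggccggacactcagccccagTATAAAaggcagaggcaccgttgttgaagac
Both stretches hold TATAAA, which occurs in 12.4% of 32817 promoter stretches of the same length, and each holds GATA on 2 occasions, a short motif found in 53.6%. TATAAA begins at −9 bases from the start site in Nppa and at −31 in Nppb. The RefSeq start sites were not checked, so distances from them need not be comparable between the genes. In Nppa the GATA letters begin at −121 and −74 bases from the start site, and in Nppb at −94 and −83. Nppa alone of the pair holds AAGTG, at −239 and −65 (40.7% of all stretches), and GGTGTGA, read on the minus strand at −250 (3.33%). Nppb alone holds CATTCC, on the minus strand at −105 (12.6%). No exact match to the AP-1 motif TGANTCA (6.75%) or the CArG box CCWWWWWWGG, with W for A or T (1.47%), was found in either stretch. Near matches were not searched. The Nppa stretch holds ctttaaaagg, which differs from the CArG box in a single letter, so a site for Srf is not excluded. None of the matches overlap. Of the other members, Nppc holds TATAAA and Npr1, Npr2, Npr3 and Corin hold no exact match to the 7 motifs searched. A match is a run of letters in the reference and was not measured as a binding site.

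**Figure D3:**
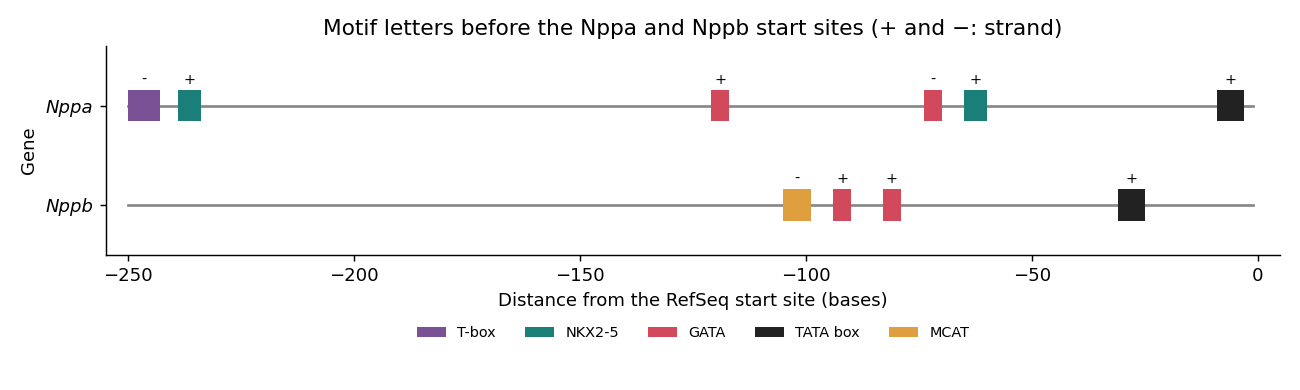
Positions of the motif letters (coloured boxes, drawn to scale, with their strand) in the 250 bases before the RefSeq start sites of Nppa and Nppb, with distance from the start site in bases on the horizontal axis. GATA letters lie in both stretches, 2 in each, the T-box and NKX2-5 letters only in that of Nppa and the MCAT letters only in that of Nppb.

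The transcription factors known to act at Nppa or Nppb were described as a list of 22 genes, all measured. For AAC over sham, 2 passed the threshold upward and 3 downward, beside 4.88% and 4.98% of all genes, with a median of −0.07 (log2). For AAC + DAPA over AAC it was 1 upward and 1 downward, beside 4.16% and 4.18%. For AAC + DAPA over sham it was 1 upward and 4 downward, beside 3.22% and 3.38%. Hand2, a factor of ventricle formation, stood at 6.56 in AAC + DAPA, 6.93 in AAC and 7.80 in sham. Serum response factor Srf stood at 9.55 in AAC + DAPA, 9.44 in AAC and 10.37 in sham. Both were thus lower in AAC + DAPA and in AAC than in sham, opposite to Nppa. The 2 factors that passed upward for AAC over sham were Hey2 (0.70, log2) and Mef2c (0.63). Myocd, the coactivator of Srf, stood at 9.14 in AAC + DAPA, 8.62 in AAC and 9.50 in sham, lowest in AAC. Nfatc2, a factor activated by calcineurin, stood at 5.63 in AAC + DAPA and at 4.72 in both AAC and sham. Gata4, which binds GATA motifs, stood at 11.45 in AAC + DAPA, 11.45 in AAC and 11.63 in sham, and Tbx5, a T-box factor, at 7.59 on all 3 arrays. Such ties were common, as described above. Gata4 and Tbx5 were named after their values were seen, because of the motifs. Hey2 and Mef2c were also named after their values were seen, so that both directions are shown.

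Downstream of the receptors, cGMP activates a protein kinase and is broken down by phosphodiesterases, and the peptides themselves are degraded by proteases. Of 32 further genes of this pathway 30 were measured. For AAC over sham, 1 passed the threshold upward and 4 downward, beside 4.88% and 4.98% of all genes. For AAC + DAPA over AAC, 5 passed it upward and 1 downward, beside 4.16% and 4.18%. For AAC + DAPA over sham it was 3 upward and 2 downward, beside 3.22% and 3.38%. The median of the 30 differences was 0.00 (log2) in each comparison, equal to that of all genes.

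Among the proteases, Mme, which encodes neprilysin, the enzyme that degrades ANP, stood at 7.94 in AAC + DAPA, 8.41 in AAC and 8.89 in sham. AAC + DAPA lay 1.93-fold under sham, with both smaller steps within the threshold. Pcsk6, which activates corin, stood at 9.92 in AAC + DAPA, 9.33 in AAC and 9.69 in sham, with AAC + DAPA 1.51-fold above AAC. Furin, which processes pro-BNP, stood at 7.16 in AAC + DAPA, 6.99 in AAC and 7.21 in sham, and the insulin-degrading enzyme gene Ide between 13.09 and 13.10. Ostn, which encodes the musclin peptide that binds the clearance receptor, was at 5.09 on all 3 arrays, a tie of the kind described above. The 6 measured genes of nitric oxide synthesis and soluble guanylate cyclase, the other source of cGMP, all lay within 1.5-fold in the 3 comparisons. Furin, Ide and Ostn were named as exceptions, after their values were seen.

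The kinase gene Prkg1 was higher with dapagliflozin. It stood at 8.96 in AAC + DAPA, 8.07 in AAC and 8.19 in sham, 1.85-fold above AAC and 1.71-fold above sham. Its target Rgs2, which limits signaling through Gq-coupled receptors, had the same shape, at 10.48 in AAC + DAPA, 9.0 in AAC and 9.09 in sham. It was 2.79-fold above AAC and 2.62-fold above sham. AAC and sham were nearly alike for both genes. Rgs4, a related regulator, was lower in AAC than in sham, at −0.61 (log2), and lay at 6.81 in AAC + DAPA, 6.63 in AAC and 7.24 in sham.

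The phosphodiesterases did not move as a group. Pde1c, which is activated by calcium and calmodulin and hydrolyses both cyclic nucleotides, had the largest difference of the pathway for AAC over sham. It stood at 10.78 in AAC + DAPA, 11.96 in AAC and 9.47 in sham, with AAC 5.62-fold above sham and AAC + DAPA 2.27-fold under AAC. Like Nppb, it was highest in AAC and stayed above sham in AAC + DAPA, by 2.48-fold. Pde2a, which cGMP itself activates, stood at 8.94 in AAC + DAPA, 8.30 in AAC and 9.07 in sham, lowest in AAC. Pde9a, which is selective for cGMP, was also lowest there, at 5.07 against 5.67 in both AAC + DAPA and sham. Pde3b was lower in both AAC + DAPA (7.19) and AAC (7.39) than in sham (8.26). Pde5a, the target of sildenafil, was named after its values were seen and lay between 5.53 and 5.58.

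**Figure D4:**
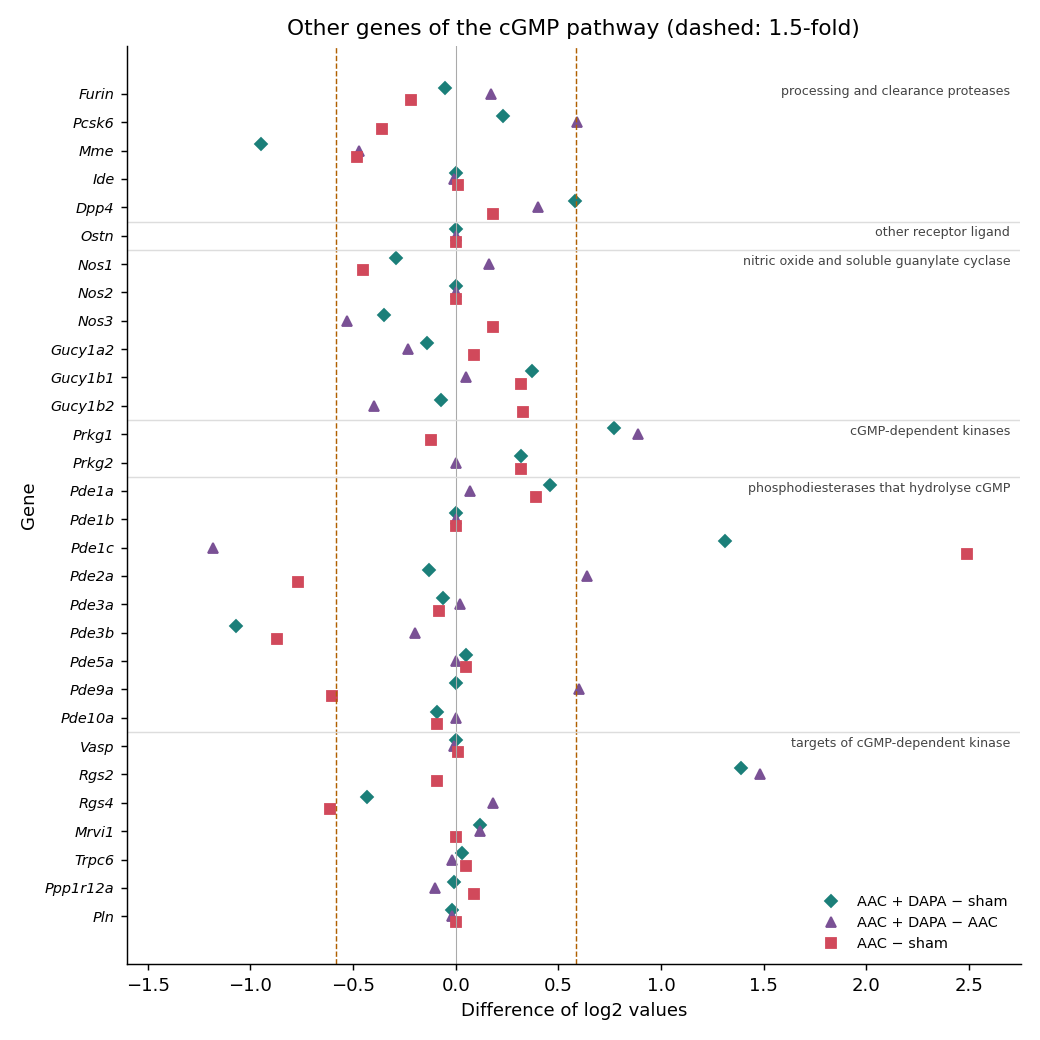
Differences of log2 values (horizontal axis) for the 30 measured genes of the cGMP pathway (vertical axis, grouped by role) in the 3 comparisons, with dashed lines at 1.5-fold. Most points lie between the lines, Pde1c lies at 2.49 for AAC over sham, and Rgs2 and Prkg1 are higher in AAC + DAPA than in both other arrays.

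Other genes that are used as markers of cardiac hypertrophy were set beside the peptides. Of 16 such genes, all measured, 4 passed the threshold upward and 3 downward for AAC over sham, beside 4.88% and 4.98% of all genes. For AAC + DAPA over AAC it was 2 upward and 1 downward, beside 4.16% and 4.18%. For AAC + DAPA over sham it was 4 upward and 3 downward, beside 3.22% and 3.38%. Myh7, which encodes the slow β-myosin heavy chain, stood at 16.76 in AAC + DAPA, 16.65 in AAC and 14.37 in sham. The stretch-responsive Ankrd1 stood at 19.62 in AAC + DAPA, 19.20 in AAC and 17.05 in sham. In AAC, Myh7 lay 2.28 and Ankrd1 2.15 (log2) above sham, and in AAC + DAPA both were somewhat higher still. Ccn2, which encodes connective tissue growth factor, stood at 9.91 in AAC + DAPA, 8.27 in AAC and 7.31 in sham, in the same order as Nppa. Skeletal actin Acta1 had another order, at 13.34 in AAC + DAPA, 10.35 in AAC and 11.72 in sham, lowest in AAC. The list therefore held genes that were high in both AAC and AAC + DAPA and genes that were not.

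Since Nppa is an atrial gene in the healthy adult heart, markers of atrial heart muscle were measured beside it. Of 11 such markers 10 were measured. None of the 10 passed the threshold for AAC over sham, beside 4.88% of all genes upward and 4.98% downward. None passed it for AAC + DAPA over sham, beside 3.22% and 3.38%. For AAC + DAPA over AAC 1 (Dkk3) passed it, upward, beside 4.16%. Dkk3, Myl7 and Sln were named as exceptions, the first after its values were seen. The log2 of their summed linear level was 12.97 in AAC + DAPA, 12.75 in AAC and 12.84 in sham, a sum made up mostly by Kcnj3 and Kcnj5. The part of atrial tissue in the difference of Nppa was not tested. The defining atrial light chain gene Myl7 stood at 3.30 in AAC + DAPA, 3.30 in AAC and 3.54 in sham, under the 25th percentile of each array (3.81 in AAC + DAPA, 3.85 in AAC, 3.81 in sham). Without a detection call it was not settled whether Myl7 was above background, so its values do not measure atrial content. Sarcolipin Sln stood at 5.40 in AAC + DAPA, 5.21 in AAC and 5.40 in sham, near the median. The markers with the highest level were the potassium channel genes Kcnj3, between 11.91 and 12.12, and Kcnj5, between 10.67 and 11.22, with Stard10 next at 9.39 to 9.57. All 7 general cardiomyocyte markers lay within 1.5-fold in the 3 comparisons, between 15.17 and 19.61 in AAC + DAPA, most of them near the top of the scale. Cardiac actin Actc1, a hypertrophy list gene named after its values were seen, stood at 18.01 in AAC + DAPA, 18.03 in AAC and 18.65 in sham, past the threshold downward in both comparisons with sham. In whole tissue, fewer cells of a type and less RNA per cell cannot be told apart.

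**Figure D5:**
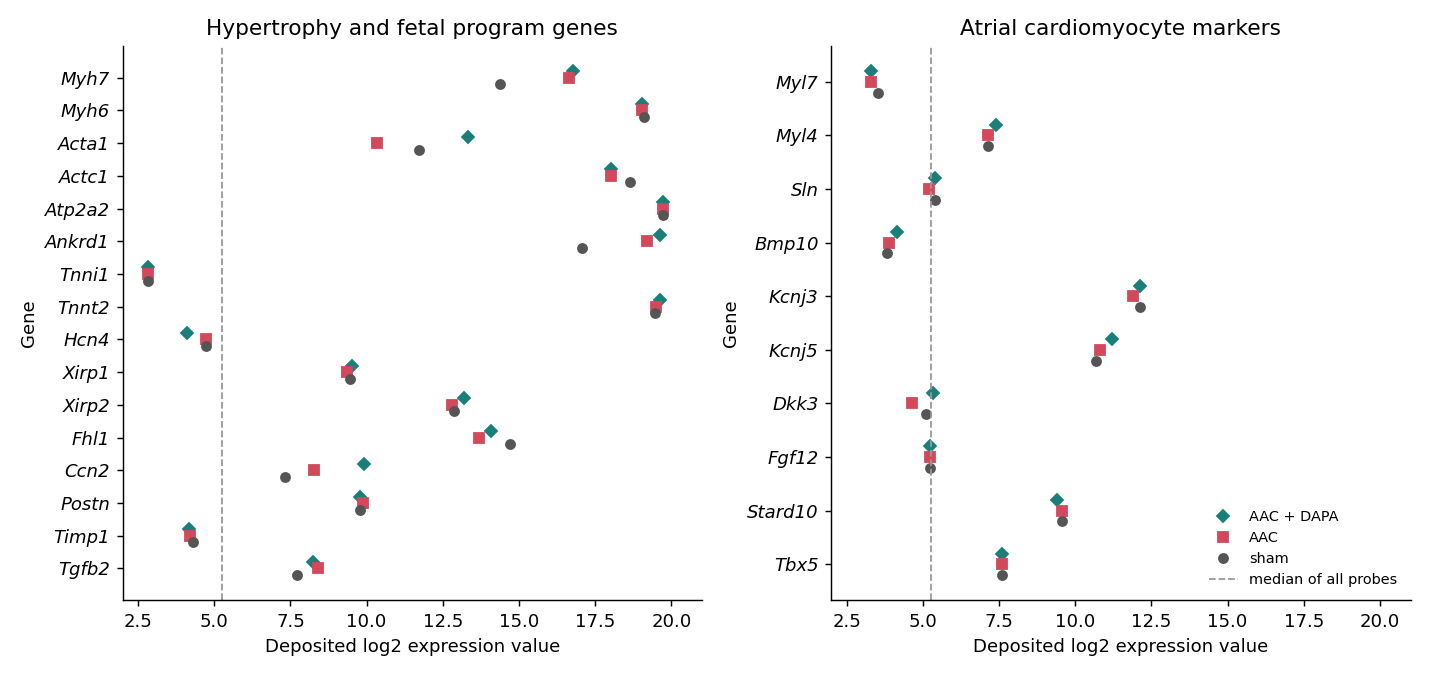
Deposited log2 expression values (horizontal axis) of 16 genes of hypertrophy and the fetal program (left) and of 10 atrial markers (right) on the AAC + DAPA, AAC and sham arrays, 1 point per array, with the median of all probes dashed. Myh7 and Ankrd1 stand apart in sham at 14.37 and 17.05, while the atrial markers lie close together on the 3 arrays.

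The genes whose pattern over the 3 arrays was most like that of Nppa were sought among 10202 genes above the median on at least 1 array, by the distance between their pairs of differences (for AAC over sham and for AAC + DAPA over AAC). The closest was the clock repressor gene Ciart, at a distance of 0.27 (log2), which stood at 9.36 in AAC + DAPA, 8.07 in AAC and 4.65 in sham. The next were Scgb1c1 at 1.00, the clock output gene Dbp at 1.53, the clock gene Per3 at 1.64 and Tcap, which encodes the Z-disc protein telethonin, at 1.70. No other gene lay within 0.1 of Nppa. For Nppb 31 genes lay within 0.1, the closest being Akap11 and Tspan13, each at 0.01, followed by Ankrd12, Etfrf1 and Il10rb. With 3 arrays such a likeness rests on 2 numbers per gene. Of 14 clock genes, a list added after the data were seen, 8 passed the threshold upward and 3 downward for AAC over sham, 5 upward and 0 downward for AAC + DAPA over AAC, and 10 upward and 3 downward for AAC + DAPA over sham. The shares of all genes upward and downward were 4.88% and 4.98% for AAC over sham. They were 4.16% and 4.18% for AAC + DAPA over AAC, and 3.22% and 3.38% for AAC + DAPA over sham. This list holds Ciart, Dbp and Per3, already picked above for their likeness to Nppa, so its counts do not stand apart from that search. Most of the listed clock genes differed from sham on both other arrays, and their part in the difference of Nppa was not tested.

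Among other cell types, the macrophage markers and the 1 measured red blood cell marker stood out on the AAC array. For AAC over sham, 1 of 5 measured fibroblast markers passed the threshold downward, beside 4.98% of all genes. In the same comparison 1 of 4 pericyte markers passed upward, beside 4.88%. None of 3 mesothelial or 3 adipocyte markers did. For AAC + DAPA over AAC, 1 fibroblast marker passed downward, beside 4.18%, and 1 adipocyte marker upward, beside 4.16%. For AAC + DAPA over sham, 1 fibroblast marker passed downward, beside 3.38%, and no pericyte, mesothelial or adipocyte marker passed. Of 5 macrophage markers 4 were measured. For AAC over sham 3 of them passed upward, beside 4.88% of all genes. All 4 passed downward for AAC + DAPA over AAC, beside 4.18%. The log2 of their summed level was 12.13 in AAC + DAPA, 13.35 in AAC and 12.09 in sham, highest in AAC as Nppb was. The 1 measured marker of red blood cells, Alas2, stood at 8.63 in AAC + DAPA, 11.92 in AAC and 7.63 in sham. Their part in the differences of Nppa and Nppb was not tested.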

How the data were processed

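Heart RNA of 3 groups was hybridised to Affymetrix arrays, 1 per group, and groups came from the sample labels. The authors deposited normalized log2 expression values, 1 per probe and array. According to the submitters' notes, processing used Affymetrix Expression Console (no version given). The methods of the paper name a human GeneChip and an Agilent protocol, whereas the probes are of mouse genes. The method of normalization and summary was not given in the sources used here. The number of arrays limits the precision.

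Of 22206 probes, 2634 without a gene symbol were left out, and 19572 with exactly 1 symbol were averaged to 19505 genes, without a filter on low values. The threshold was 1.5-fold on the linear scale. No test was possible with 1 array per group. The functions were tested on simulated data. Promoter stretches are those of RefSeq, build GRCm38.p6.

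The members and lists were chosen with earlier results of these data known. Named were all members, up to 4 genes of each pathway, transcription factor and hypertrophy list that passed the threshold between any 2 arrays (largest difference first), up to 3 markers per cell type by level, and the 5 genes most like Nppa and most like Nppb, with exceptions stated. Of the neighbours up to 2 places away, all were counted, but only those beside Nppa and Nppb and Commd8 beside Corin were named. Alternatives were median centring, quantile normalization, a gene's probe of highest mean, a 2-fold threshold, a filter at the 25th percentile, leaving out X and Y genes and, added after seeing the data, a 1.4-fold threshold. Python 3.11.15, numpy 2.4.6, pandas 2.3.3 and matplotlib 3.10.9 were used.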

Additional observations from a re-analysis of the deposited data

How the results depend on the processing

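All 63 values that the alternatives gave for the differences of the 7 genes (median centring, quantile normalization and the probe of highest mean, in 3 comparisons) kept their side of the 1.5-fold threshold and moved by at most 0.07 (log2). Since each of these genes has 1 probe, the probe of highest mean could not change any of their values. Median centring moved all genes of a comparison by the same amount. The count of 63 is therefore not a count of independent checks. At 2-fold, 1 of the 7 genes passed upward for AAC over sham, since Nppb no longer did. At 1.4-fold, chosen after seeing the data, 3 passed upward for AAC + DAPA over sham, with Nppb and Corin beside Nppa. The share of all genes past 1.4-fold was not computed, so this count has no background to be read against. In that comparison 7.92% of all genes differed by more than Nppb and 9.16% by more than Corin, in either direction. Of the 30 cGMP pathway genes, 1 passed 2-fold upward for AAC + DAPA over AAC, beside 0.831% of all genes. At 2-fold 0 passed downward for AAC over sham and 1 downward for AAC + DAPA over sham. The share of all genes past 2-fold downward was not computed, so these 2 counts cannot be set against it. The filter on low levels kept 6 of the 7 genes (without Nppc) and 25 of the 30 pathway genes. Leaving out X and Y genes kept all of both, so it could not change a count and does not check the Y-linked difference of the AAC array. The filter on low levels, median centring, quantile normalization and the probe of highest mean left every count within 1.5 times. No paired analysis was possible because each group has 1 array, and for the same reason no replicate could be left out. Every value of the 7 genes rests on 1 probe.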

Other observations

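The genes beside the members on the chromosome were measured as well. There were 22 measured protein-coding genes within 2 places of a member in RefSeq, leaving out the members themselves. Of these, 1 passed the threshold upward and 2 downward for AAC over sham, beside 4.88% and 4.98% of all genes. For AAC + DAPA over AAC it was 2 upward and 2 downward, beside 4.16% and 4.18%. For AAC + DAPA over sham it was 2 upward and 1 downward, beside 3.22% and 3.38%. Clcn6, which encodes an endosomal chloride transporter and lies next to Nppa, stood at 5.79 in AAC + DAPA, 5.67 in AAC and 5.79 in sham. On the other side of the pair, 2510039O18Rik stood at 6.54 in AAC + DAPA, 5.65 in AAC and 5.65 in sham, highest with dapagliflozin as Nppa was, but at the same value in AAC and sham. Plod1, a collagen lysyl hydroxylase gene, stood at 9.61 in AAC + DAPA, 9.31 in AAC and 9.97 in sham. Beside Corin, Commd8 stood at 12.31 in AAC + DAPA, 12.48 in AAC and 11.14 in sham. Of the named neighbours, none had both the order and the size of the differences of Nppa. The other neighbours were counted but not named. Over all 22, the highest difference was 1.34 (log2) for AAC over sham. It was 0.89 for AAC + DAPA over AAC and 1.17 for AAC + DAPA over sham.

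Markers of cells known to carry the receptors were also set out. Endocardium is a known site of Npr3. Of 6 endocardial markers, 0 passed the threshold upward and 1 downward for AAC over sham, beside 4.88% and 4.98% of all genes. For AAC + DAPA over AAC it was 1 upward and 1 downward, beside 4.16% and 4.18%. For AAC + DAPA over sham it was 0 upward and 2 downward, beside 3.22% and 3.38%. The cytokine-like gene Cytl1 was among them in each comparison, at 9.20 in AAC + DAPA, 8.51 in AAC and 10.45 in sham, while Npr3 spread over 0.16 (log2). Of 6 measured endothelial markers, none passed for AAC over sham, and 1, the VEGF receptor gene Kdr, passed downward for AAC + DAPA over AAC and over sham, at 12.96 in AAC + DAPA, 13.62 in AAC and 13.59 in sham. Of 4 smooth muscle markers, 1 (Myh11, 0.91 log2) passed upward and 1 (Acta2) downward for AAC over sham. For AAC + DAPA over AAC it was 1 upward (Acta2) and 0 downward. For AAC + DAPA over sham it was 1 upward (Myh11) and 1 downward (Acta2). Acta2 stood at 12.13 in AAC + DAPA, 10.08 in AAC and 15.25 in sham, a far wider spread than that of any receptor. The other smooth muscle markers lay within 1.5-fold in each comparison, so Acta2 does not stand for the list.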
